A study of Mus musculus with 576 samples.

Results

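The cells described here are mesenchymal cells with little Top2a of the embryonic mouse pancreas that were sorted from a Prox1-GFP line, set against the same kind of cell from the Nkx3.2 lineage. They were chosen by their measured levels of 4 genes in normalised read counts (CPM, the gene's count over the cell's total count, times 1000000). A cell was kept if it had at least 1000 genes and 100000 counts, with Epcam (epithelial) and Upk3b (mesothelial) under 20 CPM, Vim, the gene for the mesenchymal filament vimentin, at 100 CPM or more, and Top2a, which is switched on in dividing cells, under 50 CPM. This rule gave 45 cells of the Prox1 line (22 and 23 on its plates) and 58 and 51 cells on the plates of the Nkx3.2 line, out of 384 cells of these lines and 576 cells of the series.

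The study sorted GFP+ cells from the dorsal pancreas of C57BL/6J embryos, of mixed sex by the labels, at embryonic day 12.5 and sequenced them by Smart-seq2, which makes 1 library per cell and counts reads without molecular identifiers. Tg(Prox1-EGFP) embryos carry a GFP transgene that reports Prox1 expression in the cells themselves. In Nkx3.2-Cre;mTmG embryos the mTmG reporter in Rosa26 is recombined by a Cre under control of Nkx3-2, so that cells which have expressed Nkx3-2, and their descendants, carry GFP. The third line, Nkx2.5-Cre;mTmG, marks cells with a history of Nkx2-5 by the same reporter, and 59 and 45 cells of its plates meet the rule. Both Cre lines therefore mark a history of expression, while the Prox1 line is labelled with its transgene only. Each line filled 2 plates of 96 wells, 8A and 8B for Prox1, 7A and 7B for Nkx3.2, 6A and 6B for Nkx2.5. The labels name no embryo or litter, so that a line is 1 sample and no test could be made. Differences are described by whether they held in every plate pair. The libraries of each line were prepared on plates of their own, and line, embryos and library batch cannot be told apart. The library numbers of the Nkx2.5 and Nkx3.2 lines lie close together, and those of the Prox1 line lie in a separate range.

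Pancreatic mesenchyme surrounds the epithelial bud and supplies it with growth factors and matrix. It derives from the splanchnic mesoderm, which also forms the mesenchyme of the gut, the spleen primordium and the mesothelial covering, and the homeobox genes Isl1, Barx1, Nkx2-5 and Nkx3-2 are expressed in different parts of it. Prox1 encodes a homeodomain factor that is best known from pancreatic progenitors, hepatoblasts and lymphatic endothelium.

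Members were 24.3% of the cells of sufficient depth in the Prox1 line, most of which were at 20 CPM or more of Epcam, and 57.1% of those in the Nkx3.2 line, where 7 cells reached that level of Epcam. Members of the Prox1 line held between 272531 and 1031329 counts, with a median of 776878 counts and 6291 genes. Those of the Nkx3.2 line held between 265831 and 1332301, with a median of 890120 counts and 7202 genes. The Prox1 cells were therefore a little shallower, and all shares of cells below are taken after each cell was thinned to 100000 counts.

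The values that chose the cells lay far from the limits for Epcam and closer to them for Vim and Top2a. In the Prox1 line 42 of 45 members had no Epcam count and the highest had 3.67 CPM, and the 36 cells left out by Epcam alone held 281 to 1873 CPM. Members of the Prox1 line ranged from 108.8 to 1514 CPM of Vim and those of the Nkx3.2 line from 275 to 2184, and the highest cells left out by Vim alone held 89.8 and 97.96 CPM. For Top2a the highest members held 48.4 and 44.3 CPM and the lowest cells left out held 50.9 and 56.2. Pooled over members, Vim itself stood at 545 and 414 CPM on plates 8A and 8B and at 749 and 939 CPM on 7A and 7B.

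Prox1 was at 130.3 and 216 CPM on plates 8A and 8B, at 0 and 3.005 CPM on 7A and 7B, and at 0 on both plates of the Nkx2.5 line. The sort selected for the reporter of this gene, so the difference is a description of the sort. It was carried by 20 of the 45 Prox1 members (44.4%, exact 95% binomial interval 29.6 to 60.003%), and the other 25 had no Prox1 count. In the Nkx3.2 line 1 thinned member had a count (0.917%, 0.0232 to 5.01%), and 1 cell held 84.6% of all Prox1 counts. Prox1 (ENSMUSG00000010175, chromosome 1, 190118035 to 190170714 on the minus strand of GRCm38) was at 1419 CPM in the Epcam cells of plates 8A and 8B, and the pooled level in mesenchyme was 176.9 CPM. The driver gene of the other line did not set the lines apart. Nkx3-2 was at 24.5, 30.8, 17.4 and 34.2 CPM on plates 8A, 8B, 7A and 7B, and was counted in 20 Prox1 members and 52 Nkx3.2 members after thinning.

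A gene was called higher or lower in the Prox1 line if its pooled level differed by at least 2-fold in the same direction in all 4 plate pairs (8A and 8B, each with 7A and 7B). A level under 3 counts was set to 3 counts. Of 10170 genes at 10 CPM or more in either line, 1.69% were called higher and 265 (2.61%) lower, and the median log2 ratio of all tested genes was 0.01. Plates of 1 line also differed. Between 8A and 8B, 2378 genes (23.4%) were apart by 2-fold or more, against 745 (7.33%) between 7A and 7B and 2004 to 2163 (19.7 to 21.3%) in the pairs that cross the lines. For genes at 50 CPM or more these shares were 9.36%, 1.02% and 9.13 to 11.1%. A 2-fold difference in a single plate pair was therefore as common within the Prox1 line as across lines, and the calls rest on agreement between pairs. With fewer pairs to agree there were more calls, 5.35% higher and 8.88% lower without plate 8A, 6.17% and 8.82% without 8B, 3.70% and 4.96% without 7A, and 3.44% and 3.88% without 7B. From the mean of log2(CPM + 1) over cells, which weights cells equally, they were 0.728% and 5.12%.

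**Figure D1:**
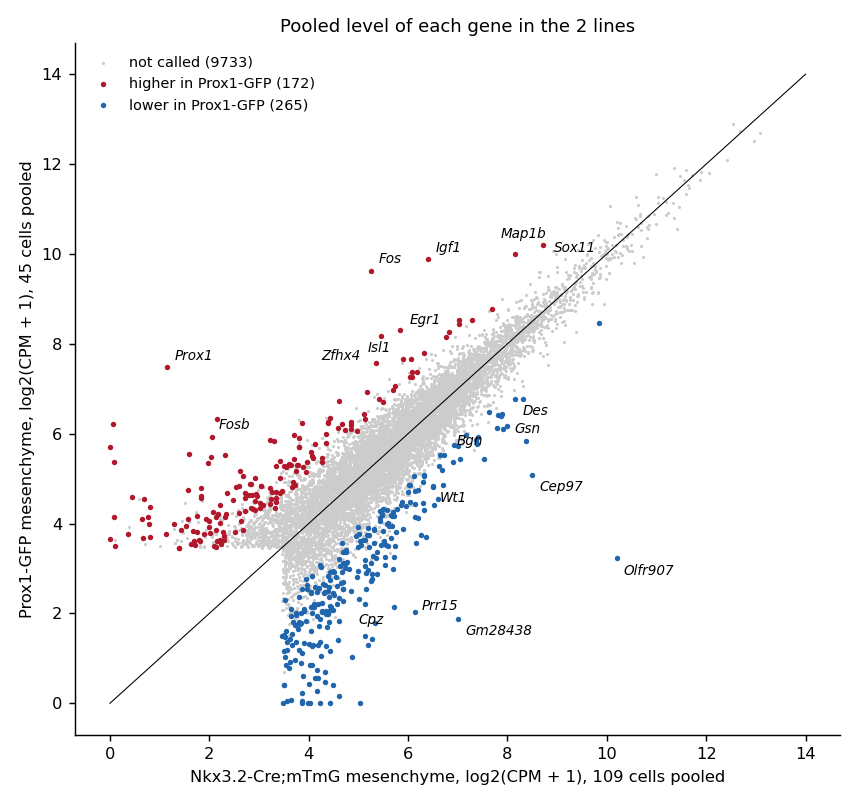
Pooled level of each of the 10170 tested genes in the Nkx3.2-Cre;mTmG members (horizontal axis) and the 45 Prox1-GFP members (vertical axis), as log2(CPM + 1). Red points are the 1.69% of genes called higher and blue points the 265 called lower in the Prox1 line, grey points were not called, and the line marks equal levels. Fos, Igf1 and Prox1 lie far above the line, and Olfr907 farthest below it.

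Base composition moved with these calls. The median GC content of the longest transcript was 49.3% over the tested genes, 47.6% over those called higher and 53.8% over those called lower, and the median log2 ratio was 0.19 in the 2013 genes lowest in GC and -0.22 in the 2013 highest. Of those highest in GC, 1.34% were called higher and 5.17% lower. After ratios were centred within 5 classes of GC, an alternative chosen after seeing the data, 1.61% of genes were called higher and 2.28% lower. The part of base composition in any single gene's ratio was not tested.

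The homeobox gene Isl1 and the growth factor gene Igf1 were higher in the Prox1 line. The study named a class of mesenchyme, M-III, from these samples and ties Prox1 to it, and its marker list is therefore not independent of them. Of 7 tested markers, 3 were called higher and none lower, against 1.69% and 2.61% of all tested genes (median log2 ratio 1.22, against 0.01 over all genes). Igf1 and Isl1 were among them. The study names Igf1 and Smoc2 jointly as markers of M-III and of a further class, M-I. Igf1 alone therefore does not set these classes apart, and no marker list was made here for M-I. Igf1 (ENSMUSG00000020053, chromosome 10, 87858265 to 87937042 on the plus strand) encodes a secreted growth factor. It stood at 1222 and 715 CPM on 8A and 8B and at 81.4 and 87.2 CPM on 7A and 7B, an 11.3-fold difference in pooled level with 8.19 to 15.02-fold in the plate pairs. The Prox1 plates lay above the Nkx3.2 plates without overlap, as the rule for a call requires, and the Nkx2.5 line lay between them at 318 and 417 CPM. Without the cells with Acta2 or Rgs5 at 50 CPM, which left 12 Prox1 and 16 Nkx3.2 members, the log2 ratio of Igf1 was 1.91 in place of 3.50.

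Isl1 (ENSMUSG00000042258, chromosome 13), a LIM-homeodomain factor needed in dorsal pancreatic mesenchyme as well as in endocrine cells, was at 236 and 171.4 CPM against 77.95 and 48.2 CPM (3.05-fold, pairs 2.20 to 4.90-fold). In the Epcam cells of the Prox1 plates Igf1 was at 15.8 CPM, while Isl1 was at 187.5 CPM.

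The share of cells with these genes differed as well. Isl1 was counted in 34 of 45 Prox1 members (75.6%, interval 60.5 to 87.1%) and 37 Nkx3.2 members (33.9%, 25.1 to 43.6%). Igf1 was counted in 30 (66.7%, 51.05 to 79.999%) and 21 (19.3%, 12.3 to 27.9%). The intervals cover counting error over cells only, and with 1 sample per line they are no test between the lines. Both genes were counted together in 25 of 45 cells (55.6%) against 11 Nkx3.2 members (10.1%).

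Igf1 was also compared in cells split by their Isl1 level. Among the 35 members of each line with Isl1 at 20 CPM or more, the log2 ratio was 2.515 for Igf1, against 3.50 over all members. Among the 10 Prox1 and 74 Nkx3.2 members with less Isl1 it was 3.74. Within the Prox1 line these genes were found in cells with and without a Prox1 count. Isl1 was counted in 16 of the 20 cells with Prox1 and 18 of the 25 without, and Igf1 in 12 and 18.

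The remaining M-III markers moved less evenly. Col14a1, a fibril-associated collagen, was at 242 and 214 CPM against 99.5 and 136.2 CPM (1.98-fold), and Flrt3 at 332 and 115.5 against 93.7 and 89.2 CPM, and neither met the call in all pairs. Smoc2, a matricellular protein gene, lay the other way at 483 and 153.5 CPM against 600 and 762 CPM and was not called. Among the transcription factors of gut mesenchyme, 1 of 16 tested was called higher, against 1.69% of all tested genes. This was Zfhx4, a large zinc finger homeobox gene, at 131.9 and 237 CPM against 32.6 and 50.3 CPM (4.75-fold, pairs 2.62 to 7.26-fold). Its log2 ratio of 2.25 was 1.33 in cells with Isl1 at 20 CPM or more and 0.07 without the cells with Acta2 or Rgs5. Barx1, the stomach mesenchyme factor, missed the call by 1 pair (101.8 and 184.4 CPM against 51.2 and 43.4 CPM, lowest pair 1.99-fold). Nr2f2, an orphan nuclear receptor of mesenchyme, was at 728 and 805 CPM against 403.5 and 407 CPM, with every pair under 2-fold.

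Of the further classes named by the study, M-SpP on the spleen side and M-II were listed with 6 tested markers each. None of these markers was called (medians -0.32 and -0.05). The study also names a class M-IV in its integrated data, by Klf4, Jun and Fos, which are described below with the immediate-early genes. The spleen factor Tlx1 was at 7.67 and 12.2 CPM against 18.8 and 13.4 CPM, and Nkx2-5 at 12.5 and 14.8 against 9.69 and 10.6 CPM. For M-II, Gap43 was at 452 and 233 CPM against 324 and 283 CPM, with overlap between the lines. Wnt5a and Slit2, secreted signals of that class, had lower levels in the Prox1 line on average (142.2 against 311 CPM and 132.5 against 315 CPM), but not 2-fold in every pair. Of 12 tested Hox genes, whose combinations mark positions along the body axis, none was called and the median log2 ratio was 0.34.

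**Figure D2:**
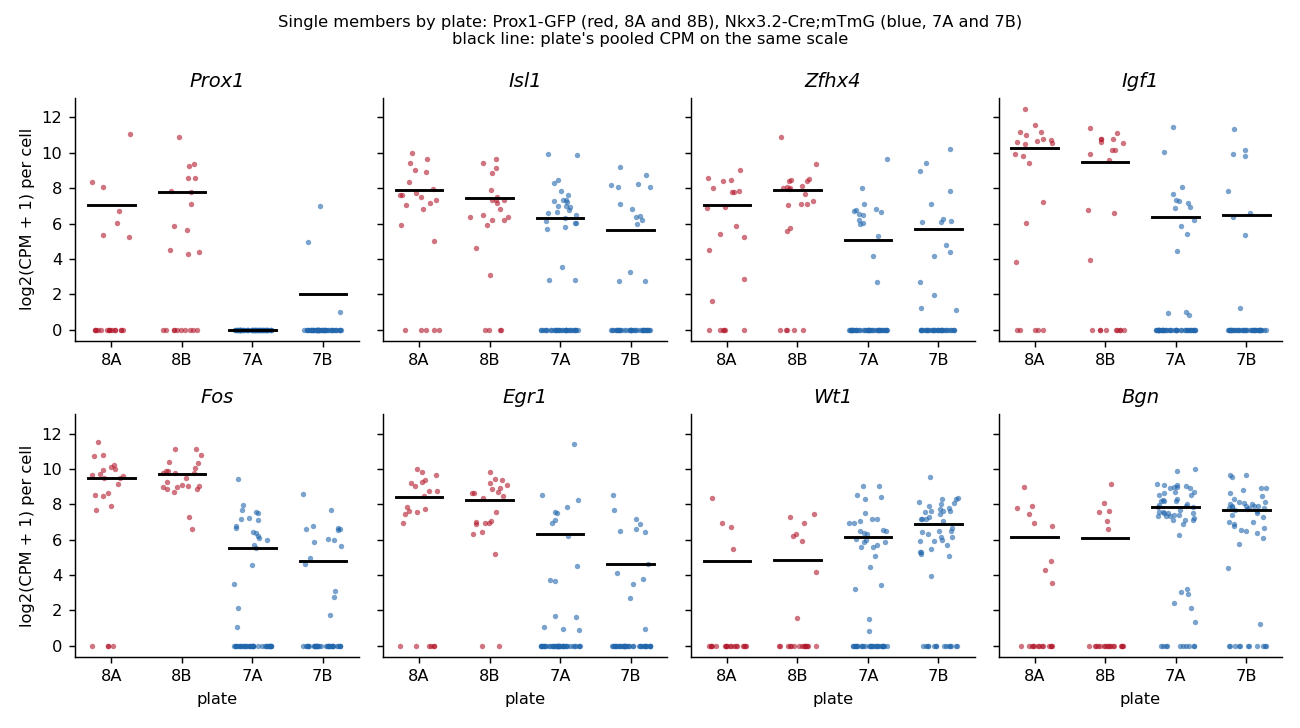
Level of 8 genes in every member, as log2(CPM + 1), by plate. Red points are Prox1-GFP cells (8A and 8B), blue points Nkx3.2-Cre;mTmG cells (7A and 7B), and the black line is the plate's pooled level. Isl1, Zfhx4, Igf1, Fos and Egr1 have more cells above 0 on the red plates, Wt1 and Bgn more on the blue plates, and Prox1 is above 0 on the red plates in some cells only.

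The immediate-early genes, which are transcribed within minutes of a stimulus and do not need new protein synthesis for it, were the group with the most calls. Of 19 tested genes of a list of immediate-early and heat shock genes, 7 were called higher and none lower, against 1.69% and 2.61% of all genes, with a median log2 ratio of 0.30. All 7 were immediate-early genes. Fos (ENSMUSG00000021250), a subunit of the AP-1 transcription factor, was at 728 and 844 CPM on the Prox1 plates and at 44.8 and 26.6 CPM on the Nkx3.2 plates (21.1-fold, pairs 16.2 to 31.8-fold). It was counted in 41 Prox1 and 35 Nkx3.2 members (91.1% and 32.1%). While single cells of the lines overlapped, the pooled levels of their plates did not, as the rule for a call requires.

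Its paralog Fosb was at 51.9 and 67.1 CPM against 2.89 and 3.52 CPM (19.1-fold), and Junb, a further AP-1 subunit, at 106.4 and 50.6 against 24.1 and 14.1 CPM (3.80-fold). Egr1, a zinc finger factor downstream of growth factor signals, was at 336 and 299.6 CPM against 78.7 and 24.1 CPM (5.596-fold, pairs 3.81 to 13.97-fold). A single Nkx3.2 cell held 51.3% of that line's Egr1 counts, and without the top cell of each plate the log2 ratio was 3.51 in place of 2.48. Ier2, Dusp1, a phosphatase that switches off MAP kinases, and Klf4 were 2.72-fold, 3.41-fold and 3.17-fold higher, in every pair by at least 2.42-fold.

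At least 4 of these 7 genes were counted in 39 of 45 Prox1 members (86.7%) against 16 Nkx3.2 members (14.7%) and 16 Nkx2.5 members (15.4%). The 7 genes were picked by their calls in these same Prox1 and Nkx3.2 members. The contrast between these lines follows from that choice and only describes how the genes spread over cells. Fos and Egr1 were counted together in 37 and 8 of the Prox1 and Nkx3.2 members. Jun, the main partner of Fos, was at 462 and 548 CPM against 221 and 257 CPM and missed the call, with a lowest pair of 1.80-fold. Klf6 and Myc of the same list were not called either, with log2 ratios of 0.48 and -0.48. The heat shock genes did not follow. Hspa8 was at 3232 and 3149 CPM against 3212 and 2702 CPM, and the stress-inducible Hspa1a at 16.6 and 33.2 CPM against 32.6 and 16.65 CPM.

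Fos was also found in the other cells of the Prox1 plates. It was at 324 CPM in their Epcam cells and at 446 CPM in their cycling mesenchyme (27 cells with Top2a at 50 CPM or more), against 22.3 CPM in the 7 Epcam cells and 44.6 CPM in the 54 cycling mesenchymal cells of the Nkx3.2 plates. Egr1 was at 147.1 and 129.5 CPM in the same groups of the Prox1 plates and at 0.540 and 8.93 CPM in those of the Nkx3.2 plates. The 7 Epcam cells of the Nkx3.2 plates held 455 CPM of Vim and 380 CPM of Wt1, against 176.9 and 0.615 CPM in the Epcam cells of the Prox1 plates, and are no reference for epithelium. In the Nkx2.5 line plates 6A and 6B differed, with Fos at 131.3 and 12.5 CPM and Egr1 at 61.75 and 0.919 CPM. Sort, dissociation and library batch go with the line and cannot be told apart from it for these genes.

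The promoters of Fos and Dusp1 are shown because they hold the core of the cyclic AMP response element, which is bound by CREB and is known from immediate-early promoters. The windows reach from 250 bases before to 50 bases after the start of the gene on RefSeq GRCm38.p6. Capitals mark TGACGT or its reverse complement ACGTCA, which overlap where a site is palindromic. Of the 7 genes, 5 had an entry in the promoter table, and the letters were found in 2 of them, against 7.51% of all 32851 promoters of the same length. Fosb, Junb and Klf4 had no match in the window. The Fos window is chr12:85473640-85473939 on the plus strand, with a match that begins 66 bases before the start. The Dusp1 window is chr17:26508423-26508722 on the minus strand, with 3 matches, of which 2 overlap.
Fos: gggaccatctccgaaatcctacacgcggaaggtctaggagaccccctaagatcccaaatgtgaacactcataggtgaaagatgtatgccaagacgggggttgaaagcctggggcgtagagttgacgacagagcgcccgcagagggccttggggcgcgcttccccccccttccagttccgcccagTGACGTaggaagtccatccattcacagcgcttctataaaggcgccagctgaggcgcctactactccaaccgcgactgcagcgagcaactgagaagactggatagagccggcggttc
Dusp1: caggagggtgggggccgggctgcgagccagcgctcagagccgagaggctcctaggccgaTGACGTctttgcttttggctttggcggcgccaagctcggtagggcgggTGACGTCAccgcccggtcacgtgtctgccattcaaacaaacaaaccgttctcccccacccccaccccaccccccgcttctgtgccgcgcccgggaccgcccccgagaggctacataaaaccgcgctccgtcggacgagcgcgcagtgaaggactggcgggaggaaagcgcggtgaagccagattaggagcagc

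Genes with roles in neurons formed another group with several calls. Of 14 tested, 4 were higher and none lower, against 1.69% and 2.61% of all tested genes (median log2 ratio 0.70, with 13 of 14 ratios above 1). Map1b, a microtubule-associated protein gene, was at 709 and 1284 CPM against 298 and 261 CPM (3.61-fold) and was counted in 40 Prox1 and 92 Nkx3.2 members (88.9% and 84.4%), a like share of cells. Sox11, a transcription factor of neuronal and mesenchymal precursors outside the list, was at 957 and 1348 CPM against 457 and 360 CPM, but at 1295 and 1375 CPM in the Nkx2.5 line. The Nkx2.5 level of Map1b was also close to the Prox1 level, at 760.1 and 822 CPM.

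The other 3 were adhesion and receptor genes in fewer cells. Cntn1 was at 56.2 and 36.1 CPM against 2.87 and 5.605 CPM (14 and 6 members), Ntm at 79.05 and 68.1 against 23.1 and 26.1 CPM, and the GABA receptor gene Gabrb1 at 80.2 and 37.3 against 4.85 and 13.5 CPM. A single cell gave 36.3% of the Gabrb1 counts of the Prox1 line and 24.1% of its Cntn1 counts. Markers of neural crest and nerve cells did not move with them. Of 12 listed genes 2 were tested and none was called, 5 and 4 were at 0 in the Prox1 and Nkx3.2 lines, and their summed level was 99.96 and 110.5 CPM (per cell 0 to 677 and 0 to 455 CPM).

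Signalling genes showed single calls rather than shared ones, where 1.69% of all tested genes were called higher and 2.61% lower. Of the 8 tested genes of the insulin-like growth factor system only Igf1 was called, while Igf2 was at 1054 and 739 CPM against 1364 and 1706 CPM. Crabp2, a carrier of retinoic acid, was at 55.8 and 146.3 CPM against 20.1 and 27.8 CPM (4.51-fold) as 1 call among 11 tested retinoic acid genes. Bmp7, a ligand of the BMP family, was at 46.3 and 60.5 against 14.01 and 20.2 CPM (3.27-fold), 1 of 11. Cxcl13, a chemokine of lymphoid tissue, was at 64.6 and 26.2 against 3.42 and 2.65 CPM, but in 6 members of each line, all of them with Isl1, and 1 cell held 38.8% of the Prox1 counts. No gene was called among 12 tested Wnt ligands and modulators, 9 genes of the Fgf pathway and 6 of the Hedgehog pathway. The Hedgehog median was -0.99, with log2 ratios of -1.11 for Gli2, -1.09 for Boc, -0.996 for Ptch1, -0.98 for Smo, -0.50 for Gas1 and 0.10 for Gli3.

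**Figure D3:**
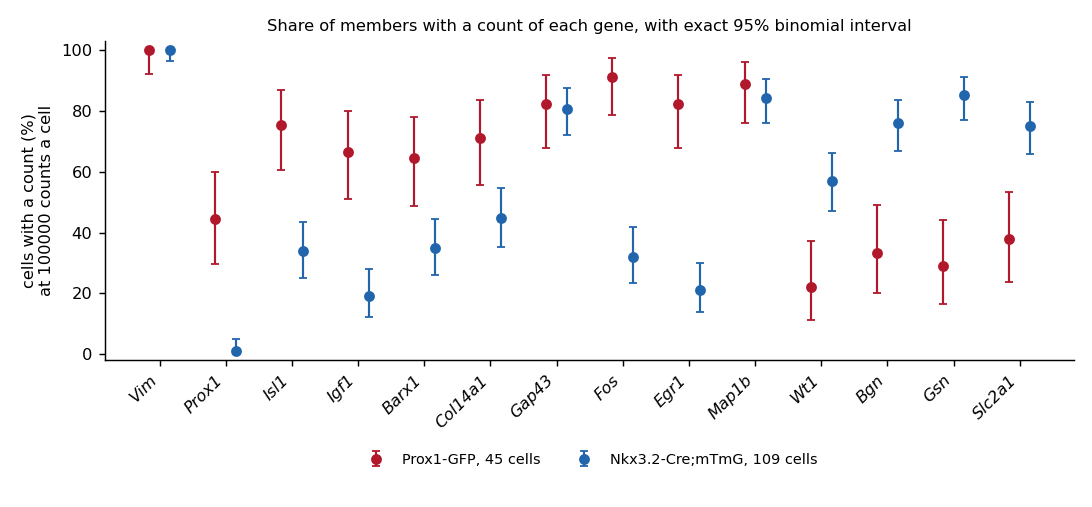
Share of members with at least 1 count of each gene after thinning to 100000 counts a cell, with the exact 95% binomial interval (counting error only), for Prox1-GFP (red) and Nkx3.2-Cre;mTmG (blue) members. Isl1, Igf1, Fos and Egr1 have higher shares in the Prox1 line and Wt1, Bgn, Gsn and Slc2a1 higher shares in the Nkx3.2 line, while Gap43 and Map1b lie at like shares, and the share with Vim is set by the rule that chose the cells.

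Against 2.61% of all tested genes, 1 of the 2 tested genes of the mesothelial list was lower in the Prox1 line. This was Wt1, a zinc finger factor of mesothelium and of the mesenchyme derived from it, which was at 26.8 and 28.3 CPM against 69.1 and 118.8 CPM (3.23-fold, pairs 2.44 to 4.43-fold) and was counted in 10 Prox1 members (22.2%, 11.2 to 37.1%) and 62 Nkx3.2 members (56.9%, 47.05 to 66.3%). Cells with high Upk3b had been left out of both lines. The remaining tested gene of the mesothelial list, Cdkn1c, was not called and lay the other way at 1595 and 1184 CPM against 924 and 880.2 CPM. Without cells that had any Upk3b or 20 CPM of Wt1, 2.22% of genes were higher and 2.89% lower.

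Bgn, a small proteoglycan of collagen matrix, was at 70.9 and 66.5 CPM against 228 and 206 CPM (3.196-fold), and the glypican Gpc2 at 21.2 and 8.59 against 45.5 and 56.5 CPM. These were the 2 lower calls among 13 tested proteoglycans, and the syndecan Sdc4 was the 1 higher call at 66.5 and 65.3 against 30.2 and 30.8 CPM. Of all tested genes, 2.61% were called lower and 1.69% higher. None of 25 tested collagens, 15 elastic fibre genes or 8 basement membrane genes was called. Gsn, an actin-severing protein, was at 106.1 and 42.1 CPM against 226 and 296 CPM and was counted in 13 Prox1 and 93 Nkx3.2 members (28.9% and 85.3%). Des, the muscle filament gene desmin, was at 95.1 and 119.8 against 286 and 279 CPM, as the 1 call among 11 tested contractile and mural genes.

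Acta2, the smooth muscle actin gene, rested on single cells. It was at 0 and 276 CPM on 8A and 8B and at 147.2 and 38.3 CPM on 7A and 7B, and 1 cell held 96.1% of the Prox1 and 72.9% of the Nkx3.2 counts. Integrin Itga1 was at 0.323 and 5.16 against 22.9 and 14.4 CPM, and 1 cell held 85.97% of the Prox1 and 42.5% of the Nkx3.2 counts. Among 28 tested guidance genes, Slit1 and Unc5b, a secreted guidance cue and a netrin receptor, had no count in any Prox1 member. They were at 14.9 and 10.2 CPM in the Nkx3.2 line, at least 168.7-fold and 115.5-fold higher against the level of 3 counts over the Prox1 line, and were counted in 17 and 13 thinned members. Nrp2, a receptor for semaphorins and VEGF, was higher in the Prox1 line (21.35 and 26.8 against 8.51 and 4.06 CPM), with 51.8% of its Prox1 counts from 1 cell.

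Calls were few among metabolic and cell cycle genes, as they were among all genes (1.69% higher and 2.61% lower). The glucose transporter gene Slc2a1 was lower (62.1 and 60.7 against 129.8 and 162.1 CPM) as the 1 call among 15 tested glycolysis genes. None of 20 S-phase and 15 G2/M genes was called, with medians of -0.39 and -0.22, in cells that had been chosen by low Top2a. Low Top2a did not leave out every cell with cycle genes, since the summed level of the 20 S-phase genes had a median of 2992 CPM per Prox1 member and 3032 CPM per Nkx3.2 member, and that of G2/M genes reached 5661 and 5252 CPM. Cdkn1b, which encodes the cell cycle inhibitor p27, was at 16.9 and 17.9 CPM against 2.995 and 5.68 CPM (4.27-fold), 1 of 8 tested G1 genes.

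**Figure D4:**
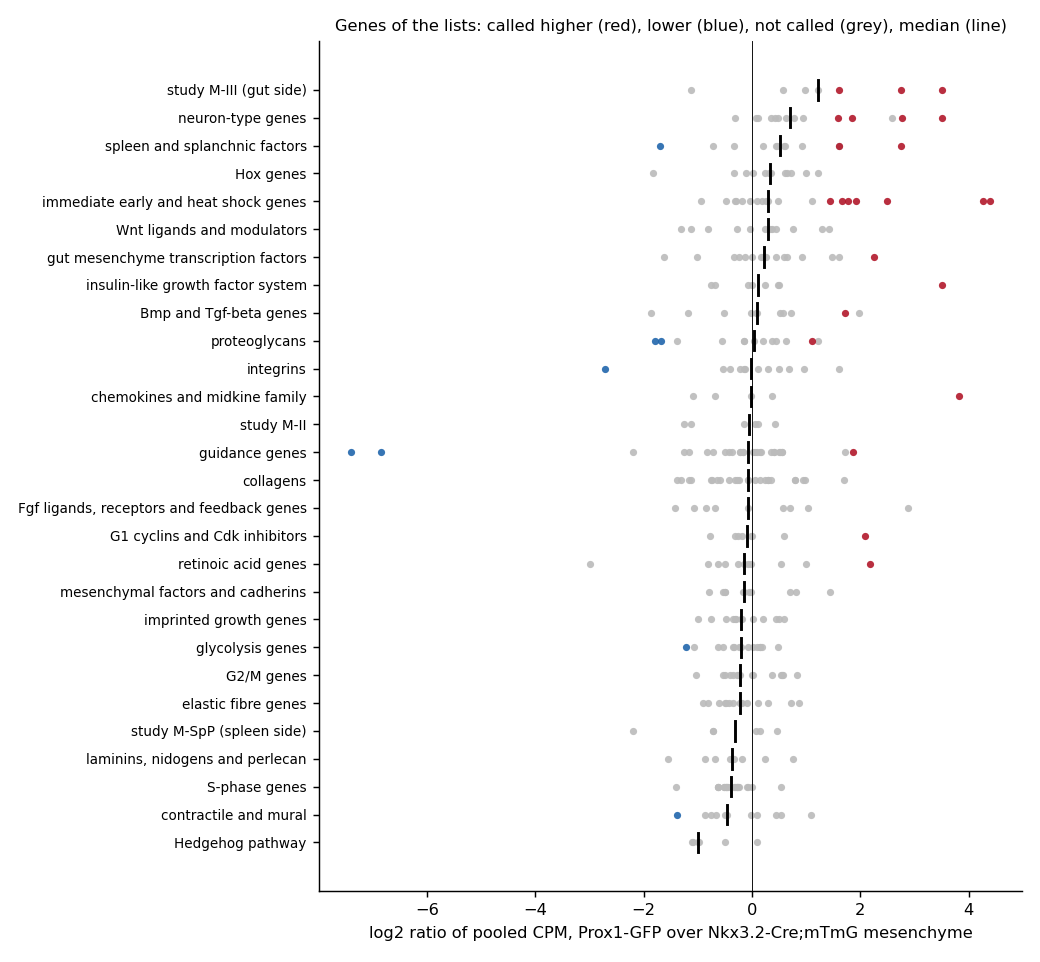
Log2 ratio of pooled CPM, Prox1-GFP over Nkx3.2-Cre;mTmG members, of every tested gene in the lists with at least 5 tested genes. Red points were called higher, blue points lower and grey points not called, and the black line is the list's median. Immediate-early genes hold 7 red points, neuron-type genes 4 and the M-III list 3, and the collagens, Hox genes and S-phase genes hold no red or blue point.

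By size of the ratio, 50 of the higher and 62 of the lower genes were at 50 CPM or more and in at least 25% of the cells of the higher line, and these were ranked by ratio. Among the 15 highest were, in order, Gm10020, Gm15920, Prox1, Gm43960, Fos, Fosb, Igf1, Gm10182, Egr1, Fam162b, Zfhx4, Rprm, Crabp2 and Cthrc1. The 15 lowest were Olfr907, Gm28438, Prr15, Cpz, Cep97, Mertk, Gm4737, Clca3a1, Sec16a, Map2k5, Cwc22, Pald1, Trib2, Ints5 and Tns3.

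Several of the largest ratios were alike in mesenchymal and epithelial cells of the Prox1 plates. Olfr907, annotated as an olfactory receptor gene, was at 9.20 and 7.64 CPM on the Prox1 plates and at 647 and 1946 CPM on the Nkx3.2 plates. It was at 6.86 CPM in the Epcam cells of the Prox1 plates, and at 7.92 and 744 CPM in the cycling mesenchyme of the Prox1 and Nkx3.2 plates. In the same Epcam cells Prr15 was at 6.08, Cep97 at 26.9 and the pseudogene Gm28438 at 6.93 CPM, against 3.07, 33.1 and 2.69 CPM in the Prox1 members. In the Nkx2.5 line Olfr907 was at 431 and 438 CPM and Prr15 at 41.2 and 53.5 CPM, on the side of the Nkx3.2 line. Libraries of both Cre lines are close in number, so that their likeness cannot be told apart from a shared library batch.

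In the other direction, the processed pseudogenes Gm10020 and Gm15920 were at 73.5 and 51.3 CPM in Prox1 members, at 75.4 and 52.1 CPM in their Epcam cells and at 0.0406 and 0 CPM in Nkx3.2 members. Gm10020 was uneven between plates, at 0.918 CPM on 8A and 134.7 CPM on 8B. Gm43960 and Gm10182 are processed pseudogenes too. Reads of pseudogenes can be shared with their parent genes, and their assignment is uncertain. Of the genes called higher 6 were annotated as pseudogenes, of the 265 lower genes 10, and of the 10170 tested genes 196.

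Others of these have known roles in mesenchyme or adhesion. Cpz, a carboxypeptidase that binds Wnt proteins, was at 7.41 and 0 CPM against 65.8 and 31.3 CPM, Mertk, a receptor for the uptake of dying cells, at 9.09 and 5.22 against 50.8 and 50.2 CPM, and Tns3, a focal adhesion gene, at 45.8 and 39.02 against 165.7 and 211 CPM. Of the higher genes, Cthrc1, a secreted collagen triple helix protein, was at 72.8 and 32.2 against 14.6 and 10.5 CPM. Rprm, a p53 target, was at 60.3 and 58.1 against 5.83 and 23.6 CPM, with 61.9% of the Nkx3.2 counts in 1 cell. In every one of these the plates of the lines did not overlap, as the rule for a call requires.

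**Figure D5:**
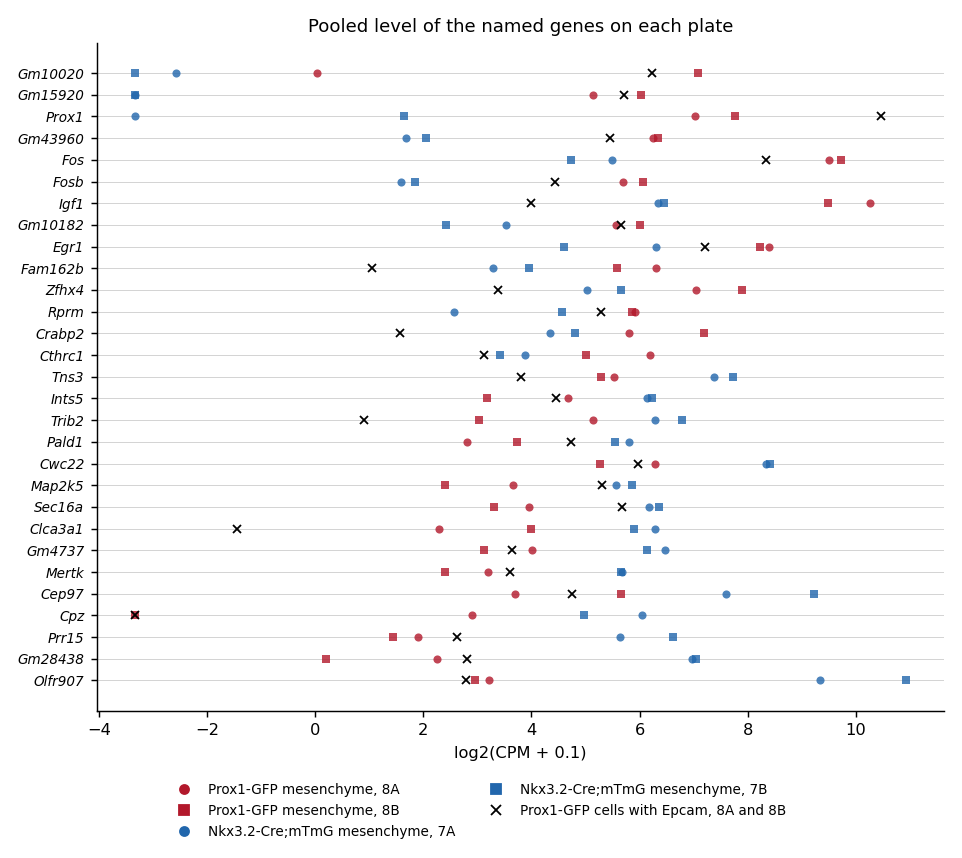
Pooled level of the named genes with the largest ratios on each plate, as log2(CPM + 0.1), in Prox1-GFP members (red, 8A circles and 8B squares), Nkx3.2-Cre;mTmG members (blue, 7A circles and 7B squares) and the Epcam cells of the Prox1 plates (crosses). The cross lies with the red symbols for Olfr907, Prr15 and Gm15920, and below all mesenchymal plates for Igf1 and Zfhx4.

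Markers of other cell types were found among the members of both lines. No endocrine and no blood or immune gene of the lists reached 10 CPM, and the 4 tested epithelial genes were not called. Blood genes summed to 0.381 CPM in the Prox1 line (0 to 11.008 per cell) and 17.9 CPM in the Nkx3.2 line (0 to 572), where the globin genes Hba-a2 and Hbb-bs were counted in 22 and 14 members and in none of the Prox1 line. Without cells with 10 CPM of globin, which left 76 Nkx3.2 members, 1.73% of genes were higher and 2.41% lower in an alternative chosen after seeing the data. Endothelial genes summed to 47.6 and 59.4 CPM. Of the lymphatic endothelial list 2 of 6 genes were tested and 1, Nrp2, was called higher, against 1.69% of all tested genes. The list summed to 48.6 and 15.4 CPM. Without the 11 Prox1 and 56 Nkx3.2 cells with at least 2 endothelial, nerve or blood markers at 10 CPM or 1 defining marker at 100 CPM, 2.10% of genes were higher and 3.17% lower, and the log2 ratios of Igf1 and Fos were 3.79 and 4.74. Transcripts of 4 Y-linked genes were near 0 in both lines (5.45 and 3.61 CPM summed) and at 340.3 CPM in the Nkx2.5 line, where 67.3% of thinned members had counts of at least 2 of these genes, against 2.22% and 0.917% of the Prox1 and Nkx3.2 members. The labels give mixed sex, yet few thinned members of the Prox1 and Nkx3.2 lines had counts of at least 2 of these genes.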

How the data were processed

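Single GFP+ cells from embryonic dorsal pancreas were sorted into plates and sequenced by Smart-seq2. The authors trimmed the reads (Trim Galore 0.6.5, per the labels), quantified transcripts with kallisto against GRCm38 and used tximport to obtain gene-level values. The deposited values are estimated counts that had not been normalised. Of values above 0, 36.0% were not whole. Reads carry no molecular identifiers, so intervals cover counting error only. Gene names and positions are from GENCODE M21 (GRCm38), and 35866 of 36658 identifiers had a symbol. Identifiers without one held 0.605% of counts and stayed in the totals.

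Cells were matched to lines and plates by library name. Counts of members were summed by plate and line and given as CPM with exact 95% Poisson intervals in the tables. Cells were thinned to 100000 rounded counts without replacement for shares of cells, which have exact 95% binomial intervals. The computation of the calls was checked on simulated data. These were drawn as plate sums without single cells, so they do not give the rate of false calls in the real data. Each line is 1 sample, and no p-value was computed. Genes named are the 15 with the largest ratio in each direction (50 CPM or more, counted in 25% of members of the higher line), all listed genes at 10 CPM or more in either line, Prox1, the driver genes and the genes of the rule. Sox11 lies outside this rule and was chosen after its values were seen. Members and gene lists were chosen with earlier results of these data known. Alternatives varied the cell rule, scaling, filters and plates. No doublet caller was run. Python 3.11.15, numpy 2.4.6, pandas 2.3.3 and scipy 1.17.1 were used. One gene that these rules select is not reported here.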

Additional observations from a re-analysis of the deposited data

How the results depend on the processing

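Under the 26 alternatives run, none of the 30 named ratios turned its direction. The 30 genes had been picked by large ratios that agreed in all 4 plate pairs of these cells. Leaving out a plate could therefore not turn them, and the other alternatives reuse cells of the main comparison. The kept direction is thus no independent evidence for these ratios. In addition, 6 of the alternatives, such as other filters, left these ratios as they were by construction or within 0.01. Under the other 20, 495 of 600 values moved by less than the standard deviation of the 4 plate pairs. Zfhx4 and Rprm had log2 ratios of 0.07 without the cells with Acta2 or Rgs5 at 50 CPM, which left 12 and 16 cells, and in cells with Isl1 under 20 CPM Fam162b was at 0.13 and Pald1 at -0.70.

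The calls, 1.69% higher and 2.61% lower of the 10170 tested genes, are given here under each alternative as the number of genes called per 100 of those 10170, and with a filter under 10 CPM the added genes lie outside them. They were 5.54% and 7.08% with 2-fold in the pooled lines only, and 0.521% and 0.619% with a filter of 50 CPM. Only 5212 genes pass the filter of 50 CPM, of which 53 were called higher and 63 lower. The calls were 4.11% and 8.97% with no filter, where the higher line needed more than 3 counts on each plate, and 3.99% lower with 5 CPM. From the mean of log2(CPM + 1) they were 0.728% and 5.12%, without the top cell of each plate 1.07% and 6.71%, and without Acta2 or Rgs5 cells 4.00% and 8.45%. In cells with Isl1 at 20 CPM or more 2.62% were higher, and in those with less 10.1% were lower. Without plates 7A, 7B, 8A and 8B in turn, 3.70%, 3.44%, 5.35% and 6.17% were higher and 4.96%, 3.88%, 8.88% and 8.82% lower, with 2 pairs left to agree. The other alternatives stayed within 1.5 times. The causes were not tested beyond fewer cells or pairs by construction. No paired analysis was possible because each line is 1 sample and the labels number no replicates. For genes in few cells depth is the limit, and 3 counts over the Prox1 members are 0.0885 CPM.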
